A study of Ovis aries with 49 samples.

Results

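The 7 brains of fetal sheep (Ovis aries) from control-fed ewes were examined for unequal reads from the paternal and the maternal allele. The members were the 370 autosomal genes listed in 3 or more of these 7 brain libraries, out of 2250 autosomal genes listed in at least 1 of them, and the 7 libraries were part of 49 samples in the series. Western white-faced ewes had been mated with Dorset rams, and from gestation day 30 control ewes were fed at 100% of the digestible nutrients set by the National Research Council. Tissue was taken at day 135, and blood DNA of the 4 rams gave the paternal genotypes. By the animal numbers in the sample descriptions, fetuses 1, 5 and 7 came from a single ewe, called A here, and were sired by ram 3. Fetuses 4 and 6 came from ewe B, fetus 2 from ewe C and fetus 3 from ewe D, all sired by ram 4. Fetuses of the same ewe were averaged, so a gene had at most 4 ewe values. These came from only 2 rams and are not fully independent for the paternal allele. Kidney and lung of the same 7 fetuses, and brains of 4 fetuses from ewes restricted to 60% and 4 from ewes overfed at 140% of the same standard, served for comparison.

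Genomic imprinting is the silencing of a gene on the chromosome from a particular parent, set by DNA methylation laid down in the germ line. In mammals imprinted genes act in fetal growth, placental function and brain development, and some are imprinted in neurons but not in other tissues. A SNP that differs between the parents shows which chromosome an RNA read came from. A reciprocal cross, in which the breeds of sire and dam are exchanged, separates the parent from the inherited sequence. Such a cross was not part of these samples, so an allele that is read more because of its sequence cannot be told apart from a parental effect unless the rams carried different bases.

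Each fetal list gave the paternal and maternal reads at SNPs where the ram was homozygous and the fetus heterozygous. A library held 261 to 1270 autosomal SNPs and 10128.5 to 70366 reads at them, with a median of 27 to 33 reads per SNP, so a single SNP in a single fetus was imprecise. Every listed SNP had at least 70% of its reads on 1 allele, and only 0.953% to 3.87% of the informative SNPs of a fetus were listed. A gene with balanced expression is therefore mostly missing, and the percentages below describe genes already selected for unequal reads in single libraries. Of 16 neuronal markers, NEFM, UCHL1 and the X-linked SYN1 were listed, with a mean of 246 reads per SNP in brain, against 71.2 in kidney, where ENO2, MAP2, THY1 and UCHL1 were listed, and 39.6 in lung, where MAP2 and STMN2 were. None of the 10 astrocyte, 6 choroid plexus and ependyma, 9 blood, 6 muscle, 10 kidney or 9 lung markers was listed in these brains, and 1 of 12 oligodendrocyte, 2 of 9 microglial and 2 of 7 endothelial markers were. Because the lists hold unequal SNPs only, a marker that is missing may still be expressed. In bulk tissue a share of reads averages over all cells, and fewer cells of a type cannot be told apart from less RNA per cell.

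Most of the genes that could be tested leaned to the maternal allele. Of the 338 genes with values from 2 or more ewes, 270 were called as unequal, which is 79.9%. The call rested on limma's moderated test of the log ratio of paternal to maternal reads, with a Benjamini-Hochberg adjusted p under 0.05. Of these genes, 65 were called paternal, 19.2% of those tested, and 205 were called maternal, 60.7%. The paternal share of reads had a median of 81.1% over the paternal calls, with means per gene between 70.7% and 97.5%. Over the maternal calls its median was 17.2%, with means between 0.0978% and 29.4%. In all 270 called genes every listed fetus lay on the same side of 50%, whereas 63 tested genes had fetuses on either side and none of them was called. Another 5 genes, ARHGAP25, CDT1, HDHD2, LOC101116226 and OAT, had all fetuses on the same side and were not called. As the lists exclude balanced SNPs, agreement in side among a few ewes was enough for a call. Even 4 ewes on the same side cannot give less than 0.125 in a two-sided exact sign-flip permutation test of a single gene.

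The maternal lean was seen over all tested genes and moved with how widely a gene was listed and with the SNPs that were read. The median log ratio of all 338 genes was -1.20 on the natural log scale, and the median paternal share was 22.9%. Over the 409 genes listed in 2 fetuses, which were not tested, the median was 46.2%, with both fetuses paternal in 125 genes and both maternal in 178. Over all autosomal reads of a library 43.5% to 52.9% were paternal. Measured against this median, 71 genes were called paternal and 30 maternal, 29.9% of those tested. Among listed SNPs at which all 7 fetuses were heterozygous the paternal allele was higher in 21.7% of 956 values, with a 95% Clopper-Pearson interval of 19.1% to 24.4%. At the other SNPs it was higher in 46.5% of 3844 values, with an interval of 44.9% to 48.1%, which covers counting error only, as do the other intervals given here. Without SNPs heterozygous in 10 or more of the 15 fetuses, 38 genes were called paternal and 55 maternal among 152 tested, 61.2%. Of 144 genes with a SNP heterozygous in all 7 fetuses 127 were called, 88.2%, with 22 paternal, 15.3%, and 105 maternal, 72.9%. Of 194 genes without such a SNP 143 were called, 73.7%, with 43 paternal, 22.2%, and 100 maternal, 51.5%. Why some SNPs were heterozygous in every fetus was not tested.

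**Figure D1:**
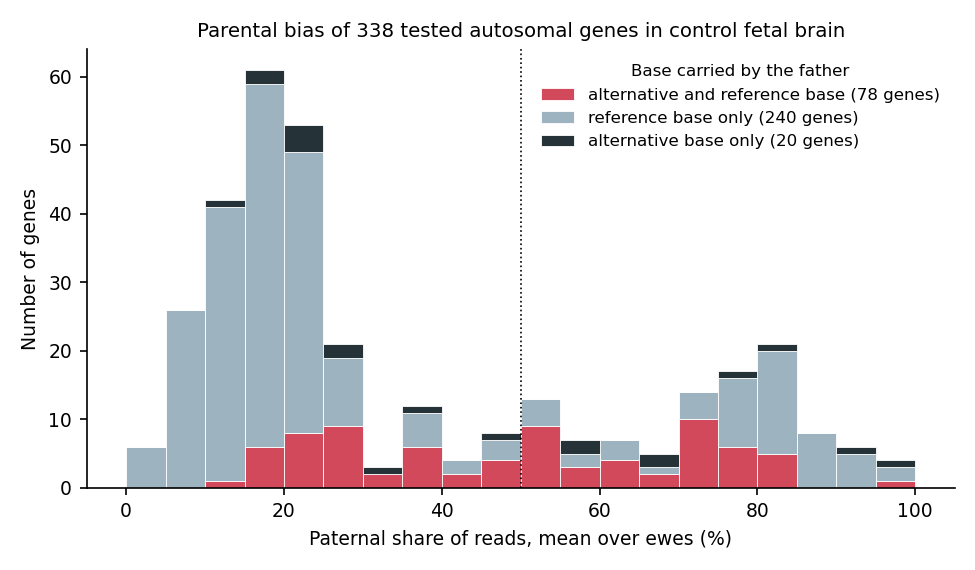
Number of tested genes (vertical axis) by mean paternal share of reads over ewes in percent (horizontal axis, bins of 5 points), coloured by the base the father carried at the gene's listed SNPs. Of the 338 genes most lie below 30%, a smaller group lies above 70%, and the 78 genes seen with either base as paternal are spread over both sides and the middle.

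Genes reported as imprinted in mammals were few in these lists, and the tested ones lay on the reported side. Of 28 genes reported as paternally expressed, 9 had an informative SNP in a control fetus, 3 were listed and 2 were tested, INPP5F and PEG3. Both were called paternal, against 19.2% of all tested genes. Of 45 genes reported as maternally expressed, 33 had an informative SNP, 9 were listed and 1 was tested, COPG2. It was called maternal, against 60.7% of all tested genes. These numbers are too small for more than the values of the single genes.

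INPP5F encodes a phosphoinositide phosphatase, and a transcript that starts within the gene is paternally expressed in mouse brain. Its 6 listed SNPs lay on chromosome 22 between 38839760 and 38841513. Fetus 2 had 1066.5 paternal and 17.5 maternal reads, or 98.4% paternal, fetus 3 had 97.2%, fetus 4 97.8%, fetus 6 96.3% and fetus 7 97.3%. Reads were summed over the SNPs listed in a fetus. Positions 38840079, 38840114 and 38840134 lie within the length of a read. The same fragment can thus be counted at each of them, and the sums overstate the number of distinct fragments. The maternal allele supplied 9 to 43 reads by these sums in each of these fetuses, so it was low but not absent. The mean share was 97.5% ± 0.599 (SD, n = 4 ewes), the highest of the paternal calls, with a log ratio of 3.67 (SE 0.141, limma adjusted p = 0.000840). The father carried the reference base at 2 of the SNPs and the alternative base at the other 4. Fetuses 2, 3 and 4 listed both kinds, fetus 6 the alternative and fetus 7 the reference base, and all 6 SNPs were 94.7% or more paternal. In kidney the gene was listed in fetus 3 only, where 70.3% of its reads were paternal, and in lung it was not listed.

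PEG3 encodes a zinc finger protein that acts in fetal growth and, in mice, in maternal behaviour. At its 5 listed SNPs on chromosome 14, between 60912163 and 60912869, fetus 1 had a paternal share of 88.4%, fetus 2 of 78.0%, fetus 5 of 86.0%, fetus 6 of 83.8% and fetus 7 of 94.7%. All 5 fetuses lay well on the paternal side, and fetus 5 alone gave 310 paternal and 50.5 maternal reads summed over the 5 SNPs. Some of these SNPs lie within the length of a read, so the same fragment can be counted at each of them. The mean was 83.9% ± 5.83 (SD, n = 3 ewes, limma adjusted p = 0.00910). The maternal remainder was larger than that of INPP5F, and it was seen in kidney as well, at 86.7% ± 1.17 paternal (SD, n = 4 ewes), and in lung, at 84.6% ± 3.11. Only the reference base was seen as paternal. Without the SNPs heterozygous in all 7 fetuses the log ratio was 1.59 and the limma adjusted p 0.0955.

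COPG2, a subunit of the coat of Golgi transport vesicles, lies beside the imprinted gene MEST. Its single listed SNP, at position 94272649 of chromosome 4, had a paternal share of 9.89% in fetus 3, 14.3% in fetus 4 and 11.1% in fetus 6. All 3 values were far on the maternal side, from 31.5 to 67.5 reads each. The mean was 11.3% ± 1.99 (SD, n = 2 ewes, limma adjusted p = 0.00939), and measured against the median of all genes the adjusted p was 0.0888. The father always carried the alternative base there. In kidney the same SNP was 24.4% and 29.7% paternal in the 2 fetuses that listed it.

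The other reported imprinted genes rested on 1 or 2 fetuses and were not tested. AMPD3, GATM, OSBPL5, PHACTR2, PPP1R9A, TRAPPC9 and WRB, reported as maternally expressed, had paternal shares of 14.04% to 29.5% in the single fetus that listed each. WRB was the lowest, with 4 paternal and 24.5 maternal reads and a 95% Wilson interval of 5.60% to 31.0%. The lists hold only SNPs at most 30% or at least 70% paternal. In a control brain library 38.4% to 46.0% of autosomal SNPs had the paternal allele higher. In restricted or overfed brains GATM, PPP1R9A and WRB were maternal and PHACTR2 was 75% paternal, in 1 fetus each. In control kidney GATM, PHACTR2, PPP1R9A and WRB were maternal, and TRAPPC9 was 70.2% paternal in 1 fetus. ZFAT had 75.0% in fetus 5 and 28.0% in fetus 6, so its 2 fetuses lay on opposite sides. ZNF331, reported as paternally expressed, had 27.3% in fetus 7, with 6 paternal and 16 maternal reads and an interval of 13.2% to 48.2%.

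**Figure D2:**
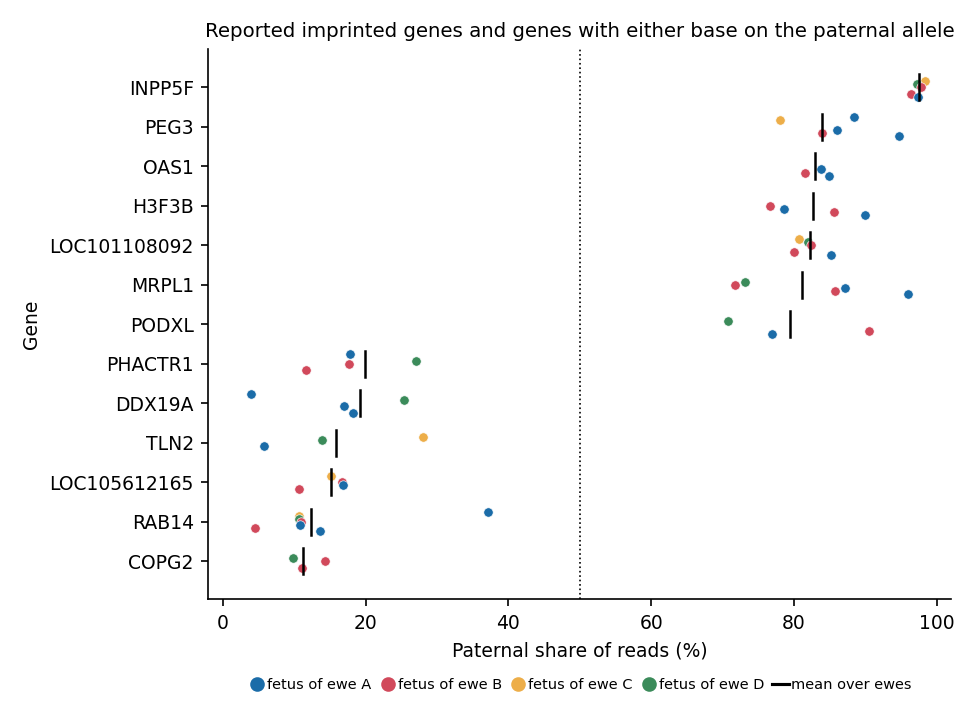
Paternal share of reads in percent (horizontal axis) in each control fetus that listed the gene (points, coloured by ewe), with the mean over ewes as a bar, for the 3 tested imprinted genes and 11 called genes with either base as paternal and large mean log ratios. INPP5F is in both sets. Its points lie between 96.3% and 98.4%, and fetus 1 of RAB14, at 37.1%, stands apart from the other fetuses of that gene.

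Genes in which the father had carried the reference base at some listed SNP and the alternative base at another were called less often. Of the 78 such genes tested, 39 were called, 50%, with 18 on the paternal and 21 on the maternal side. Among genes with only 1 kind of paternal base 231 of 260 were called, 88.8%. In 25 of the 39 called genes the rarer base came from a single fetus. In 14 it came from 2 or more fetuses and lay on the same side as the other base, which held for the paternal calls CLPX, INPP5F, LOC101108092, LOC105614355, LOC105616533 and TTC21B and for 8 maternal calls. The 2 exceptions in side were RAB14 and H3F3B. The reference and alternative paternal bases of a gene usually came from different SNPs, so an effect of the parent cannot be told apart here from a sequence difference elsewhere on the inherited chromosome.

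LOC101108092, for which the lists give no other name, carried even paternal values. On chromosome 1, between 86063965 and 86065141, its 4 SNPs gave 80.6% in fetus 2, 81.9% in fetus 3, 82.4% in fetus 4, 80.0% in fetus 6 and 85.2% in fetus 7. The 5 fetuses of 4 ewes spanned a narrow range above 79%, with a mean of 82.2% ± 2.06 (SD, n = 4 ewes, limma adjusted p = 0.00331). Where the father carried the reference base the mean was 87.5%, and where he carried the alternative base it was 81.5%. OAS1, an enzyme of the interferon response to viruses, had 83.7% in fetus 5, 81.6% in fetus 6 and 84.9% in fetus 7, with a mean of 82.9% ± 1.97 (SD, n = 2 ewes). In kidney and lung OAS1 was also paternal, at 85.6% and 89.0%, each over 5 fetuses.

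MRPL1, of the mitochondrial ribosome, ranged from 71.7% in fetus 4 to 95.9% in fetus 7 over 5 fetuses, and PODXL, a sialomucin of the cell surface, from 70.8% in fetus 3 to 90.5% in fetus 6 over 3. Both were called paternal. MRPL1 had an adjusted p of 0.0525 without ewe B, and PODXL of 0.0716 without fetus 7 and 0.0626 with at least 30 reads per SNP (all limma). H3F3B, which encodes the histone variant H3.3, had 76.7%, 78.5%, 85.6% and 89.9% in fetuses 4, 5, 6 and 7. At position 54767953 the paternal base was the alternative one in all 4 fetuses, and fetus 5 had 83.6% there. The only SNP with a reference paternal base, at 54767558, was listed in fetus 5 alone, at 21.8%. H3F3B belongs to a family with near-identical copies, so its read numbers are uncertain.

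On the maternal side stood LOC105612165, with 15.1%, 16.7%, 16.9% and 10.7% in fetuses 2, 4, 5 and 6, and a mean of 15.2% ± 1.62 (SD, n = 3 ewes, limma adjusted p = 0.00373). Its 4 fetuses lay close together and were read deeply, at 125.5 to 488.5 reads each. PHACTR1, which binds actin and a protein phosphatase, had 11.6% to 27.1% in 4 fetuses. TLN2, talin of the link between integrins and actin, differed more between fetuses, with 28.1% in fetus 2, 13.8% in fetus 3 and 5.73% in fetus 5, and its adjusted p was 0.0864 without fetus 3. DDX19A, an RNA helicase, had 4.00% in fetus 1, 25.4% in fetus 3, 17.02% in fetus 5 and 18.3% in fetus 7, and its adjusted p was 0.0508 without fetus 7 (limma). In the other brains DDX19A was on either side, in 2 fetuses paternal and in 4 maternal.

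RAB14, a small GTPase of the Golgi and endosomes, was read in all 7 fetuses. Its paternal share was 37.1% in fetus 1, against 10.6%, 10.7%, 10.9%, 10.8%, 4.46% and 13.6% in fetuses 2 to 7. Fetus 1 stood apart because of a SNP that only it listed, at position 2323194 of chromosome 2, where the father carried the alternative base and 73.7% of the reads were paternal. At the SNP that all 7 fetuses listed, position 2319245, fetus 1 had 6.41%, within the range of the others. The mean over ewes was 12.4% ± 5.60 (SD, n = 4 ewes, limma adjusted p = 0.00331).

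Single SNPs kept their side from fetus to fetus as long as the father carried the same base. Of 641 SNPs listed in 2 or more brains with the same paternal base, 626 lay on the same side in all, 97.7%, with an interval of 96.2% to 98.7%. For 16 SNPs, in 11 genes, different fetuses had received different bases from their fathers. At all 16 the higher allele followed the base and at none the parent, and a count of 0 in 16 has an upper bound of 20.6%. That bound takes the SNPs as independent, although LOC105607506 and RHBDD2 each held several of them, so it is too narrow. Within a gene and fetus with 2 or more listed SNPs, 103 of 670 cases had SNPs on opposite sides, 15.4%.

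The clearest of the 16 was in SPOCK2, which encodes a proteoglycan of the brain extracellular matrix. At position 27912911 of chromosome 25 the father of fetuses 1, 5 and 7 gave the alternative base, and the paternal share was 2.88%, 1.64% and 2.32%. The father of fetuses 2 and 4 gave the reference base, and the paternal share was 98.8% and 100%. Nearly all reads at this SNP therefore carried the reference base in all 5 fetuses, whichever parent it came from. At another SPOCK2 SNP, position 27919611, fetuses 2 and 4 had 24.5% and 25.9% paternal reads, again with the reference base from the father. Kidney gave the same picture, with 5% in fetus 5 against 97.4% in fetuses 2 and 4. In LOC105607506, with 4 such SNPs, shares ran from 8.89% to 90.2%, in SMARCC2, a chromatin remodelling subunit, they were 7.41% and 89.6%, and in RPS3, a ribosomal protein, from 14.6% to 74.1%. Reads of INPP5F were paternal with either base, but at different SNPs. None of its SNPs was seen with both bases as paternal, so it gives no such comparison within a SNP.

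**Figure D3:**
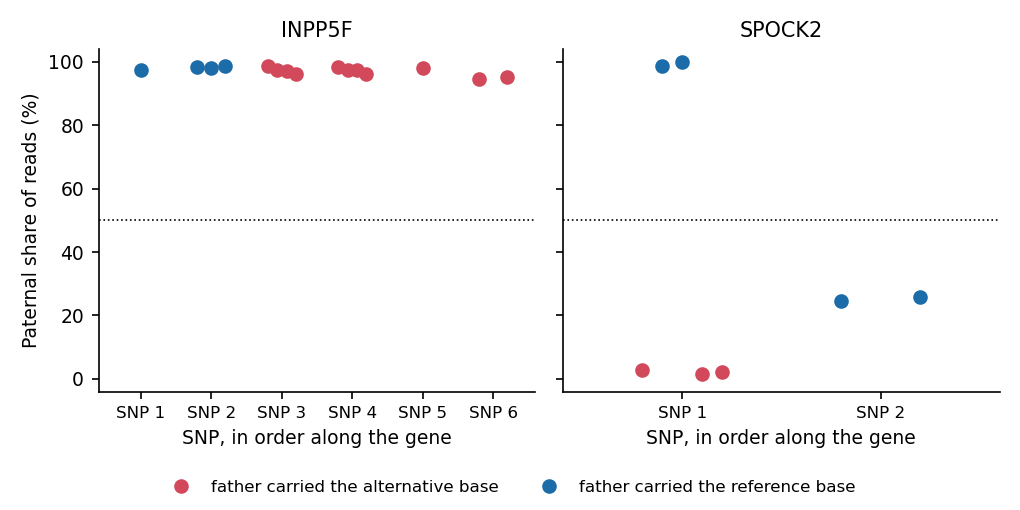
Paternal share of reads in percent (vertical axis) at each listed SNP (horizontal axis, in order along the gene), with a point per control fetus coloured by the base its father carried. All points of INPP5F lie at 94.7% or above, with the bases at different SNPs. At the first SNP of SPOCK2 points with an alternative paternal base lie below 3% and points with a reference paternal base above 98%.

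The genes listed in nearly every fetus give the best view of spread. Of 48 tested genes listed in 6 or 7 fetuses, 44 were called, 6 paternal and 38 maternal. Of all 338 tested genes 79.9% were called, 19.2% paternal and 60.7% maternal. In 40 of the 44 only the reference base was seen as paternal. Over all calls this held for 43 of 65 paternal and 175 of 205 maternal genes. Among the 6 paternal genes were RPL9, PPP2R1A, PARM1, UBB and THRA. RPL9, a ribosomal protein, had 88.3% to 97.1% in 6 fetuses, with a mean of 93.6% ± 3.00 (SD, n = 3 ewes). PPP2R1A, the scaffold subunit of a major serine and threonine phosphatase, had 87.4% to 92.1% in 6 fetuses, from 86.5 to 392 reads each, with a mean of 90.9% ± 1.06 (SD, n = 3 ewes, limma adjusted p = 0.00331). Its log ratio was 2.29 (SE 0.124).

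The polyubiquitin gene UBB was paternal in all 7 fetuses, at 73.6% to 91.9%. RPL9 and UBB have near-identical copies or processed pseudogenes in mammals, which the counting may have merged or split, so their values are uncertain. PARM1, a mucin-like membrane protein, had 80.6% to 88.9% in 6 fetuses, and none of its SNPs was heterozygous in all 7. In kidney PARM1 had 47.3% ± 30.1 (SD, n = 3 ewes), with ewes on either side of 50%, and the difference from brain was not called by limma on ewe means (adjusted p = 0.173). THRA, the thyroid hormone receptor alpha, had 55.4% in fetus 1, against 82.0%, 79.1%, 82.8%, 94.2%, 90.7% and 84.9% in fetuses 2 to 7, with a mean of 81.5% ± 3.85 (SD, n = 4 ewes). The 55.4% of fetus 1 sums the SNP at position 39908619, which no other brain listed, with 26.9% of 65 reads, and that at 39917515, with 92.1%. At 39917515, listed in all 7 brains, the shares ran from 79.1% to 96.9%.

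Of the 38 maternal genes, PPP3CB had the lowest share. It encodes a catalytic subunit of calcineurin, the calcium-activated phosphatase abundant in neurons. Its single SNP, at position 29209357 of chromosome 25, had 3.77%, 1.45%, 1.76%, 0.897%, 3.56%, 4.23% and 2.81% in fetuses 1 to 7, from 34.5 to 351 reads. The 7 values were all under 5%, with a mean of 2.29% ± 0.866 (SD, n = 4 ewes) and a log ratio of -3.58 (SE 0.125, limma adjusted p = 0.000840). GPI, the isomerase of glycolysis, had 5.92%, 0%, 3.77%, 4.84%, 6.43%, 6.91% and 7.63%, with a mean of 4.08% ± 2.98. The 0 in fetus 2 stood on 31 reads, which allow a share of up to 9.68%.

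KIDINS220, a scaffold of neurotrophin receptors, had shares of 0% to 9.52% in 7 fetuses, with 0 of 45 reads in fetus 4 allowing up to 6.67%. UBE2D2, a ubiquitin-conjugating enzyme, had 0% to 16.4% in 7 fetuses. FLOT1, a membrane raft protein, GSK3A, a kinase of glycogen and Wnt signalling, MFF, a receptor for mitochondrial fission, and AKTIP, which binds the kinase AKT, had means of 5.90%, 7.57%, 8.22% and 9.90% over 6 fetuses each. All 8 of these genes rested on a single SNP with the reference base as paternal, and that SNP was heterozygous in all 7 fetuses. The weakest called log ratios in this group were those of ME3, a mitochondrial malic enzyme, at 23.2% ± 3.69, and CUL1, a ubiquitin ligase scaffold, at 24.2% ± 10.1 (SD, n = 3 ewes each). CUL1 was not called without ewe A or ewe B (limma adjusted p = 0.0590 and 0.0798).

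**Figure D4:**
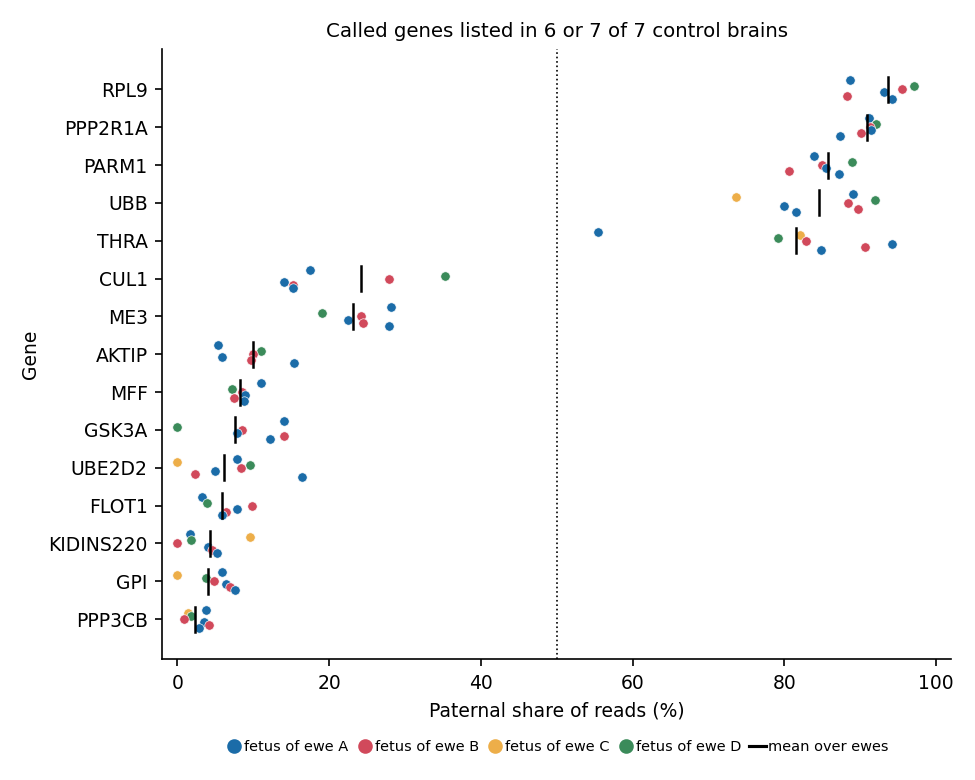
Paternal share of reads in percent (horizontal axis) in each control fetus (points, coloured by ewe) for 15 called genes listed in 6 or 7 brains, with the mean over ewes as a bar. The paternal genes shown lie above 70% apart from fetus 1 of THRA at 55.4%, and the 8 lowest genes lie below 17% in every fetus.

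Near-complete expression from 1 allele was seen on both sides. A mean paternal share of at least 90% was found in 10 called genes, and of at most 10% in 32. INPP5F was the only one of these 42 with both bases seen as paternal. ATP6V0D1, a subunit of the proton pump of lysosomes and synaptic vesicles, had the lowest mean, 0.0978% ± 0.169 (SD, n = 3 ewes, limma adjusted p = 0.00225). It had no paternal read among 33, 97.5, 42.5 and 30 reads in fetuses 2, 4, 5 and 6, which allows shares of up to 9.09%, 3.08%, 7.06% and 10%, and 1 of 170.5 reads in fetus 7, a share of 0.587%.

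Lists of brain gene groups were mostly too sparse for a count. Of 41 cytoskeleton and motor genes 5 were tested, and 3 were called maternal, DCTN1, DNM2 and TLN2, against 60.7% of all tested genes. DCTN1, of the dynactin complex that works with dynein in axonal transport, had 4.92%, 13.95%, 12.8%, 6.796% and 15.0% in fetuses 1, 3, 5, 6 and 7. DNM2, a dynamin of vesicle fission, had 12.0% to 27.1% in 4 fetuses. ANK2, the ankyrin that ties membrane proteins to the axonal skeleton, was not called. It had 50% in fetus 2, against 99.5% in fetus 4 and 99.8% in fetus 6, both from ewe B, with 0.5 maternal reads in each. MYO5A, a vesicle motor, had 74.6%, 73.2% and 72.1% in fetuses 2, 4 and 6 and 27.5% in fetus 7, and was not called.

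Of 30 genes of amyloid precursor processing and endosomal sorting 5 were tested, and all 5 were called maternal, against 60.7% of all tested genes. NCSTN, a subunit of gamma-secretase, which cuts the amyloid precursor, had 4.82% to 23.3% in 5 fetuses. RAB1A, a GTPase of transport to the Golgi, was even, with 4.71%, 3.39%, 4.83%, 4.19% and 5.47% in fetuses 1, 3, 4, 5 and 7. SORT1, the sorting receptor sortilin, had 4.00% to 18.3% in 5 fetuses, and RAB14 is given above. For NCSTN, RAB1A and SORT1 only the reference base was seen as paternal.

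Of 26 genes of myelin and lipid supply 3 were tested, with 1 called paternal and 1 maternal. HMGCS1, an enzyme of cholesterol synthesis, had 95.03%, 92.05% and 91.5% in fetuses 2, 4 and 6, with a mean of 93.4% ± 2.32 (SD, n = 2 ewes, limma adjusted p = 0.00851). APOE, which carries lipids between glia and neurons, had 3.68% in fetus 1, against 17.6%, 20.1% and 14.6% in fetuses 2, 4 and 7, all maternal. SREBF2, a regulator of sterol synthesis, had 70.5% in fetus 2 and 12.9% to 27.3% in 3 others and was not called. Of 33 ion channels and pumps 1 was tested, CACNA2D1, and of 36 axon adhesion genes 2, NCAM2 and CNTNAP2, and none of these was called, as their fetuses lay on either side. Of 18 glycolysis genes GPI alone was tested. The neuronal marker UCHL1, a deubiquitinase, was called maternal with 25.6% to 29.5% in 4 fetuses, close to the 30% limit of the lists, at up to 778 reads. No member of the 31 synaptic vesicle, 34 neurotransmitter receptor or 31 oxidative phosphorylation genes was tested.

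Another 32 genes were listed in the 3 fetuses of ewe A only and have no test. All 3 littermates leaned the same way in 27 of them, to the paternal allele in 14 and to the maternal allele in 13. FAXC had 98.6% to 99.3% paternal reads in the 3 littermates, NPC1, which moves cholesterol out of lysosomes, 91.7% to 95.5%, and NEFM, the medium neurofilament subunit of axons, 81.8% to 85.1%. MPPED1 had 1.09% to 9.06% and DNAJC7, a co-chaperone, 4.49% to 9.59%. The littermates were alike in these genes, but they share both parents. SYNJ1, which recycles synaptic vesicles, was also of this kind, with 28.3%, 21.4% and 21.1%.

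Kidney and lung of the same fetuses showed which of these biases were seen outside the brain. Of 220 genes with values from 2 or more ewes in both tissues, 13 differed between brain and kidney, 5.91%, and of 215 genes 18 differed between brain and lung, 8.37%, by limma on ewe means. With the ewe as a replicate block 24 of 200 genes differed from kidney, 12%, of which 11 were among the 13. From lung none of 189 differed with that block, 0%, where the smallest adjusted p was 0.0633 and 39 genes had an unadjusted p under 0.05. Of the 13 genes, 2 were more paternal in brain and 11 more maternal, and of the 18 genes, 4 were more paternal in brain and 14 more maternal. Libraries of either tissue list only SNPs with 70% or more of the reads on 1 allele, so a gene that turns balanced in the other tissue drops out and is not counted.

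In the listed values PPP3CB was maternal in brain and paternal in kidney. Against the 0.897% to 4.23% in brain, the paternal share in kidney was 70.6%, 83.6% and 72.1% in fetuses 4, 5 and 6 at the same SNP, and 72.0% in fetus 2 at another SNP, position 29202217, where the father carried the alternative base. Listed values on opposite sides cannot overlap, because the lists exclude balanced SNPs. The kidney values of fetuses 2, 4 and 6 lay close to the limit of the lists, and that of fetus 5 lay further from it. A kidney nearer balance would not be listed. The means over the gene were 2.29% ± 0.866 in brain (SD, n = 4 ewes) and 75.6% ± 6.89 in kidney (SD, n = 3 ewes). The difference in log ratio was -4.69 (SE 0.242, limma adjusted p = 5.60e-05), and this test does not allow for the selection of listed SNPs. The kidney values stood on 21.5 to 33.5 reads each, against 34.5 to 351 in brain. ATP6V0D1 likewise had 0% to 0.587% in brain and 70.7% to 87.0% in kidney over 5 fetuses each, and over the gene the difference was -5.74 (SE 0.254, limma adjusted p = 5.74e-05). Its SNP at position 34300831 of chromosome 14 was listed in both tissues, at 0%, 0% and 4.44% in brains 5, 6 and 7 and 70.7% to 87.0% in 5 kidneys. Brains 2 and 4, and most reads of brain 7, came from position 34308750, which no kidney listed.

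In some genes the tissues listed different SNPs. For LOC106990101 brain listed a SNP at position 136748357 of chromosome 3, at 22.03% to 25.2% paternal, and kidney another at 136749129, at 72.3% to 85.4%. For UBE2M, the conjugating enzyme of NEDD8, the SNPs of brain and kidney were neighbouring bases, at 18.4% to 25.4% in 4 brains and 73.2% and 80.5% in 2 kidneys. CNIH1, a cargo receptor of the endoplasmic reticulum, had 23.4% to 29.4% in brain and 71.4% to 73.9% in kidney, in 3 fetuses each, all near the limits of the lists. The SNP at position 63849904 was 29.4% in a brain and 71.4% and 72.3% in 2 kidneys, and that at 63852656 was 24.2% in a brain and 73.9% in a kidney, so the same SNPs lay on opposite sides, in different fetuses. LOC101105123 was paternal in all tissues and more so in brain, with 93.9% to 97.5%, against 71.9% to 83.3% in kidney and 72.6% to 76.1% in lung.

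Against lung LOC105601865 changed side, with 8.36% to 14.9% in 4 brains and 71.2% to 77.8% in 5 lungs. The brain values came from 2 ewes. Brains 6 and 7 listed no SNP that a lung listed, and brain 1 shared only position 11241056, at 9.76%. At the SNPs that lungs listed, brain 5 had 11.5% to 24.1% and the lungs 70.4% to 79.2%. These lung values began close to the limit of the lists. At position 11241070 fetus 5 had 22.9% in brain and 73.2% in lung. LOC101108092 was 82.2% ± 2.06 in brain and 45.7% ± 11.1 in lung (SD, n = 4 ewes each), where its SNPs lay on opposite sides. At the SNPs listed in both tissues lung was paternal too, at 70.8% to 77.9% at position 86063965 and 71.8% to 80.2% at 86064922. Brain had 77.1% to 89.7% and 82.6% to 90.5% there. The maternal lung values, at 19.7% to 29.1%, came from SNPs that no control brain listed, so the means compare different SNPs. RAB1A and MFF were maternal in both tissues and more so in brain, at 4.34% ± 0.819 in brain and 20.99% ± 2.90 in lung for RAB1A, and 8.22% ± 1.21 in brain and 24.9% ± 2.69 in lung for MFF (SD, n = 3 or 4 ewes). None of these lung differences was called with the ewe as a replicate block, where the adjusted p was 0.0633 for each gene named here against lung. Brain and kidney or lung of the same animal share genotypes, and cell makeup differs between tissues, which was not tested.

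**Figure D5:**
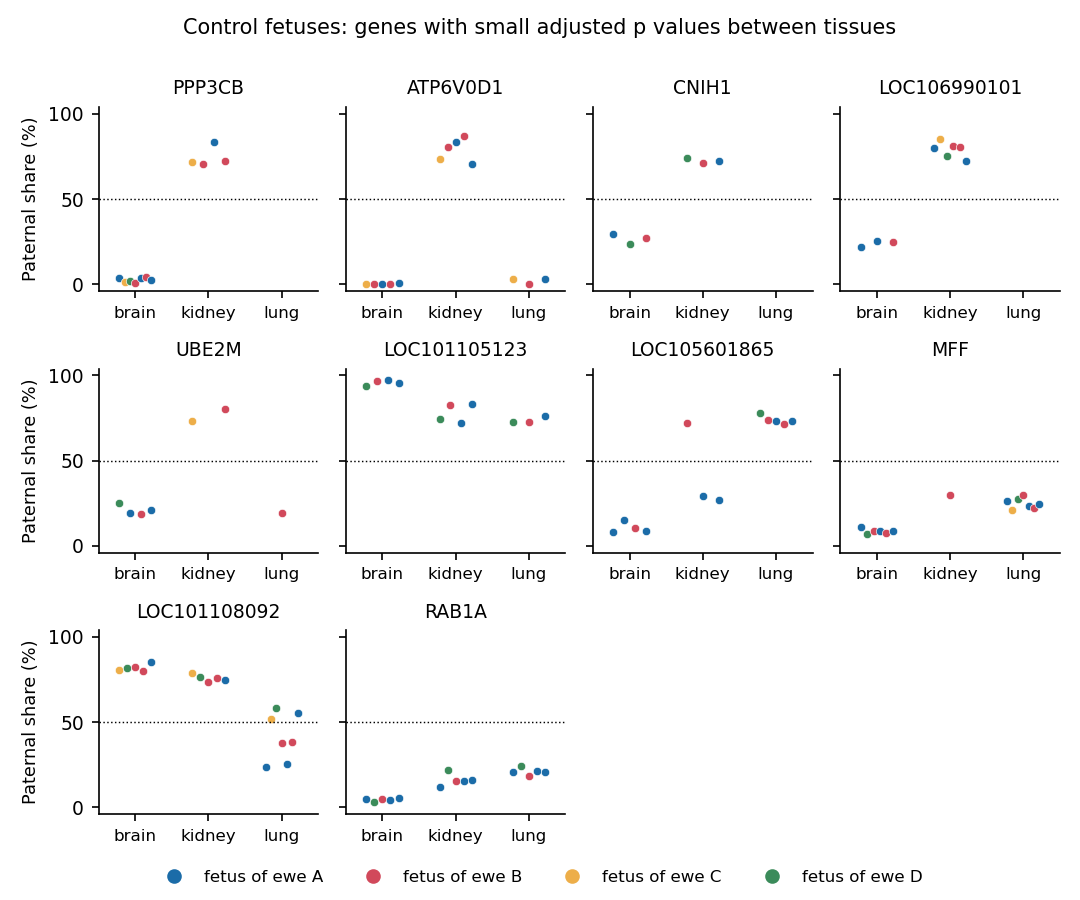
Paternal share of reads in percent (vertical axis) in brain, kidney and lung of the control fetuses (points, coloured by ewe) for 10 genes with small adjusted p values against kidney or lung. PPP3CB and ATP6V0D1 lie below 5% in brain and above 70% in kidney, and LOC105601865 lies below 15% in brain and above 70% in lung.

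Brains of the 8 restricted and overfed fetuses, each from an ewe of its own, gave mostly the same sides. There 268 of 369 genes tested were called, 72.6%. Of the 270 genes called in control brains 175 were tested there, 172 of them leaning to the same parent, and 162 passing the test as well. The remaining 95 were not tested there. LOC105614340 was called on the opposite side, with a mean paternal share of 21.97% in control brains and 77.8% in 4 of the others, while GTPBP3 and WDR26 lay on the other side without being called. Of the called genes with both bases seen as paternal, 14 were tested there, 13 on the same side and 11 called. INPP5F had 97.4% and 98.4% in the 2 other brains that listed it, PEG3 80.9% to 87.9% in 3, COPG2 9.84% to 22.2% in 5, PPP3CB 0.995% to 7.08% in 5 and RAB14 7.78% to 16.98% in 8. These fetuses came from the same breeds as the control fetuses and in part from the same rams. A parental effect thus cannot be told apart here from an effect of the inherited base.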

How the data were processed

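Poly(A) RNA of fetal brain was sequenced as paired 75-base reads (TruSeq, Illumina NextSeq), per the labels' protocols. Per the labels' series text, the authors took the mean coverage of 2 alignments, to a reference and to an alternative genome. The deposited reads per parental allele are thus estimated counts, and 64.3% of those in control brains were not whole. The submitters' processing notes name Trimmomatic 0.33, HISAT2 2.0.5, Picard and SAMtools with no role. The caller, genome build and strandedness are not given in the sources used here. Each position is printed as deposited. Reads of overlapping genes cannot be told apart.

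All 39974 values of the 45 fetal libraries matched a homozygous ram SNP and had at least 20.5 reads. Reads at SNPs with 10 or more reads were summed per gene and fetus, 0.5 read was added to each allele, and the natural log ratio was averaged per ewe. A fragment that covers several listed SNPs of a gene can be counted at each of them. Read numbers summed over SNPs can therefore exceed the number of distinct fragments. Genes listed in 3 or more fetuses with 2 or more ewes were tested against 0 by limma 3.58.1, and p-values were adjusted over all 338 genes by the Benjamini-Hochberg method. Fits ran in R 4.3.3, and files were read by the data.table package at version 1.17.8. The test was also run on simulated data, and no result given here rests on that run. P-values measure the spread between ewes, at most 4, and not between rams, of which there were 2. The labels speak of 3 sets of twins among the control fetuses, whereas the numbers used here show a set of 3 and a set of 2 littermates.

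Tissues were compared on ewe means, and as they came from the same fetuses the fit with the ewe as a block was run beside it. Deviations of the same fetus correlated between brain and kidney at 0.0454 to 0.506 and between brain and lung at 0.0564 to 0.392. The genes named were the reported imprinted genes listed, the 12 called genes with both bases as paternal and the largest log ratios, up to 8 from each end of the called genes listed in 6 or 7 fetuses, up to 4 called genes of each brain list, and the 6 with the smallest adjusted p per tissue. Results of some genes that these rules chose are not reported here. Others were named after their values were seen. The members, gene lists and rules were chosen with earlier results of these data known.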

Additional observations from a re-analysis of the deposited data

Results flagged for a closer look

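Among 33 named genes listed in 4 to 7 control brains, 3 had a fetus whose paternal share was separated from the nearest other fetus by an unusually large part of the whole range, a criterion that chance meets in about 1 of 20 groups. Fetus 1 of RAB14 had 37.1%, with the nearest other fetus at 13.6%, and likewise included a SNP listed in no other control brain. Fetus 1 of THRA had 55.4%, with the nearest at 79.1%, and it sums a SNP at 26.9% that no other control brain listed with one at 92.1%. At the SNP listed in all 7 brains fetus 1 lay within the range of the others. Fetus 7 of ATP6V0D1 had 0.587%, from 1 paternal read, where the other 4 fetuses were at 0.

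By limma on ewe means 13 genes differed in log ratio between brain and kidney of the same fetuses, and 18 between brain and lung. With the ewe as a replicate block none differed from lung. The differences of 10 genes chosen for small adjusted p values follow. In some of them the tissues listed different SNPs, as given above. The difference, brain minus kidney, was -4.69 for PPP3CB, -5.74 for ATP6V0D1, -1.93 for CNIH1, -2.45 for LOC106990101, -2.41 for UBE2M and 1.80 for LOC101105123. The difference, brain minus lung, was -3.15 for LOC105601865, -1.20 for MFF, 2.06 for LOC101105123, 1.72 for LOC101108092 and -1.67 for RAB1A.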

How the results depend on the processing

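Adding 1 read, summing littermates' reads, averaging SNP log ratios, or using the 7 fetuses separately or with the ewe as a random block kept every count within 1.5 times its value. Without SNPs heterozygous in 10 or more fetuses there were 93 calls, 38 paternal and 55 maternal, 5 and 9 of them near one-allele, 11 and 12 with both bases as paternal, and 36 control calls called alike in other brains. With genes listed in 5 or more fetuses there were 88 calls, 18 paternal and 70 maternal, 4 and 14 near one-allele, and 4 and 4 with both bases. With at least 30 reads per SNP, 10 paternal and 11 maternal calls had both bases. Against the median of all genes there were 101 calls, 71 paternal and 30 maternal, 18 of the maternal ones near one-allele and 1 with both bases, and the log ratio turned to 0.026 for CUL1, 0.022 for ME3, 0.21 for CNIH1 and 0.11 for LOC106990101. The cause was not tested beyond these constructions. Of 40 named genes 12 more lost their call against this median. Chosen after seeing the data, leaving out A/G and C/T SNPs gave 145 calls, 30 paternal and 115 maternal, 6 near one-allele on the paternal side, and 1 and 2 with both bases, and leaving out SNPs heterozygous in all 7 fetuses gave 155 calls, 48 of them paternal and the rest maternal, against 270, 65 and 205 with all SNPs. Leaving out a fetus or ewe gave 169 to 271 calls, 37 to 68 paternal and 132 to 205 maternal, 7 to 11 and 20 to 35 near one-allele, and 5 to 17 and 11 to 21 with both bases, the lowest without ewe A or ewe B, and 5 named genes lost their call. With the ewe as a replicate block 24 genes differed from kidney and 0 from lung, and the block changed no other call of the named kidney genes that had a value. With only SNPs listed in both tissues 6 differed from kidney. Leaving out an ewe gave 4 to 12 genes against kidney and 3 to 16 against lung, the fewest without ewe A, and 4 of the named tissue differences lost their call.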
